A study of Sus scrofa with 4 samples.

Results

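The genes described here are the ligands and receptors of the tumour necrosis factor (TNF) superfamily together with the adaptors, kinase and inhibitor proteins that bind to the receptors inside the cell. Members were taken by symbol: every gene whose symbol begins with TNFSF or TNFRSF and a number, TRAF1 to TRAF7, and TNF, LTA, LTB, LTBR, FAS, FASLG, CD40, EDAR, TRADD, FADD, RIPK1, BIRC2 and BIRC3. This gave 43 of the 35670 genes listed: 14 ligands, 17 receptors, 7 TRAF proteins and 5 other adaptors, kinases and inhibitors. A change was computed for genes with 10 or more reads in at least 2 libraries, which 34 of the 43 members and 14711 of all genes reached. TRAF5 reached this minimum only through the libraries labelled BRG1, so that it had to differ, and 9 members stayed below it.

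The RNA came from porcine fetal fibroblasts, cultured skin cells that serve as nuclear donors in pig cloning. There were 2 libraries of cells labelled as over-expressing BRG1 and 2 of control cells labelled as wild type. BRG1, encoded by SMARCA4, is the ATPase of the BAF chromatin remodelling complex. Both groups were serum-starved, and both carry the name pTK-642 in their titles, a name left unexplained in the labels. The labels give neither the fetuses the cells came from nor separate cultures behind the libraries, so the spread behind each p-value is that of these samples alone and may be technical.

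TNF superfamily ligands are mostly made as membrane proteins in trimers, and some are cut free by proteases. They cluster their receptors, which then recruit either TRAF adaptors and the cellular inhibitors of apoptosis BIRC2 and BIRC3, leading to NF-kappaB and stress kinases, or, through a death domain, TRADD and FADD, leading to caspase-8. RIPK1 stands where these branches part. Fibroblasts are known for the TNF receptors and for strong NF-kappaB responses to TNF, while many of the ligands are best known from leukocytes.

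Depth was between 34486400 and 38126860 reads on genes per library. Levels are CPM, counts brought to a common library size with TMM factors, and log2 fold changes are the libraries labelled BRG1 over controls with their standard error (SE). SMARCA4 itself stood at 159 and 163 CPM in the libraries labelled BRG1, against 154 and 179 CPM in controls. The groups overlapped, and the change did not pass the test (log2 fold change -0.04 ± 0.11; adjusted p = 0.764). Its 95% interval ran from 0.83-fold to 1.13-fold, so the counts of this gene did not show the over-expression that the label names. The cause was not tested. The share of reads outside annotated genes was 10.3% and 10.5% in the libraries labelled BRG1 and 6.11% and 7.34% in controls. Of 8 fibroblast markers found, all 8 were tested and 5 rose, or 62.5%, against 20.8% of all genes. VIM, COL3A1 and PDGFRB did not pass, with log2 fold changes of -0.27, -0.21 and -0.22. The summed level of the 8 markers was 35340 and 35380 CPM in the libraries labelled BRG1, against 24750 and 28070 CPM in controls. In that sum COL1A1 had a mean of 10198 CPM in the libraries labelled BRG1, against 4947 CPM in controls. COL1A2 had 7770 CPM, against 4015 CPM. Among 9 leukocyte markers, PTPRC, CD2 and MS4A1 had 0 reads in every library, which allows at most 0.0765 to 0.0935 CPM per library (3 reads). Markers of melanocytes, muscle precursors and adipocytes summed to at most 1.05 CPM per list in any library. Endothelial markers summed to 21.5 and 20.8 CPM in the libraries labelled BRG1 and 19.1 and 13.96 CPM in controls, with TEK at 0 throughout. Of 4 tested, PECAM1, an adhesion molecule of endothelium and leukocytes, rose to 6.30 and 7.05 CPM in the libraries labelled BRG1, against 2.48 and 3.24 CPM in controls (adjusted p = 8.86e-04). VWF did not pass (log2 fold change -1.28; adjusted p = 0.0563), nor did EGFL7 and CLDN5. The share that rose was 25%, near the 20.8% of all genes. Keratinocyte markers summed to 2.65 and 3.61 CPM in the libraries labelled BRG1 and 2.83 and 3.15 CPM in controls, with KRT1, KRT5 and DSG3 at 0. EPCAM, an adhesion molecule of epithelium, had 3 and 1 reads in the libraries labelled BRG1 and 14 and 20 reads in controls, and reached the read minimum only through controls. CDH1, the epithelial cadherin, had 2 and 33 reads in the libraries labelled BRG1 and 0 reads in both controls.

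In the libraries labelled BRG1, 14 of the 34 tested members fell and 4 rose at an adjusted p of 0.05, and 16 did not pass. That is 52.9% called, against 44.2% of all genes tested. The falls made up 41.2% of the tested members, against 23.4% of all genes, and the rises 11.8%, against 20.8%. Over the 33 members that reached the minimum in both groups, which leaves out TRAF5, 14 fell and 3 rose, or 51.5% called. Falls of at least 2-fold were those of TNFSF13B, TNF, TNFSF14, TNFSF15, TNFSF9 and TNFRSF12A, 6 members, where 6.24% of all genes fell that far. Apart from TRAF5, 1 member, TNFRSF19, rose at least 2-fold, where 8.57% of all genes rose that far. The median log2 fold change was -0.32 over the tested members and 0.02 over all genes tested. In 32 of the 34 tested members the groups did not overlap, as in 73.1% of all genes.

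The number of rises depended on the scaling of the libraries and on single libraries. With a control left out, the spread behind each test is that of the libraries labelled BRG1, which differed less from each other. Calls gained that way are not stronger evidence, and ranges of adjusted p over the alternatives include these fits. With library size alone, which moves the median of all genes up by 0.23 on the log2 scale, 11 of 34 members rose and 12 fell. There 4818 of all 14711 genes tested rose and 2136 fell. With upper quartile factors, which move the median by 0.11, 7 of 34 members rose and 12 fell, while 3789 of all genes rose and 2768 fell. Without library 2 labelled BRG1, 1 rose and 12 fell, and without control 2, 7 rose and 15 fell. A correction for gene span takes each library's trend with the length of genome a gene covers out of the counts. After it 9 of 33 members rose and 12 fell, while 2433 of 11351 genes tested rose and 2721 fell. With this correction the share of rises among members was above that of all genes, as was the share of falls. Calls that stayed on the same side in all 15 alternatives run were the falls of TNFSF9, TNFSF14, TNFSF15, TNFSF13B, TNFRSF12A, TNFRSF1B, CD40, TRAF2, TRAF7 and BIRC3 and the rise of TRAF6. TNFSF13B had 6 and 12 reads in the libraries labelled BRG1, against 54 in each control. With at least 50 reads in 2 libraries, and without library 2 labelled BRG1, it reached the minimum only through controls. It had to differ there, so those fits are no support for its fall.

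**Figure D1:**
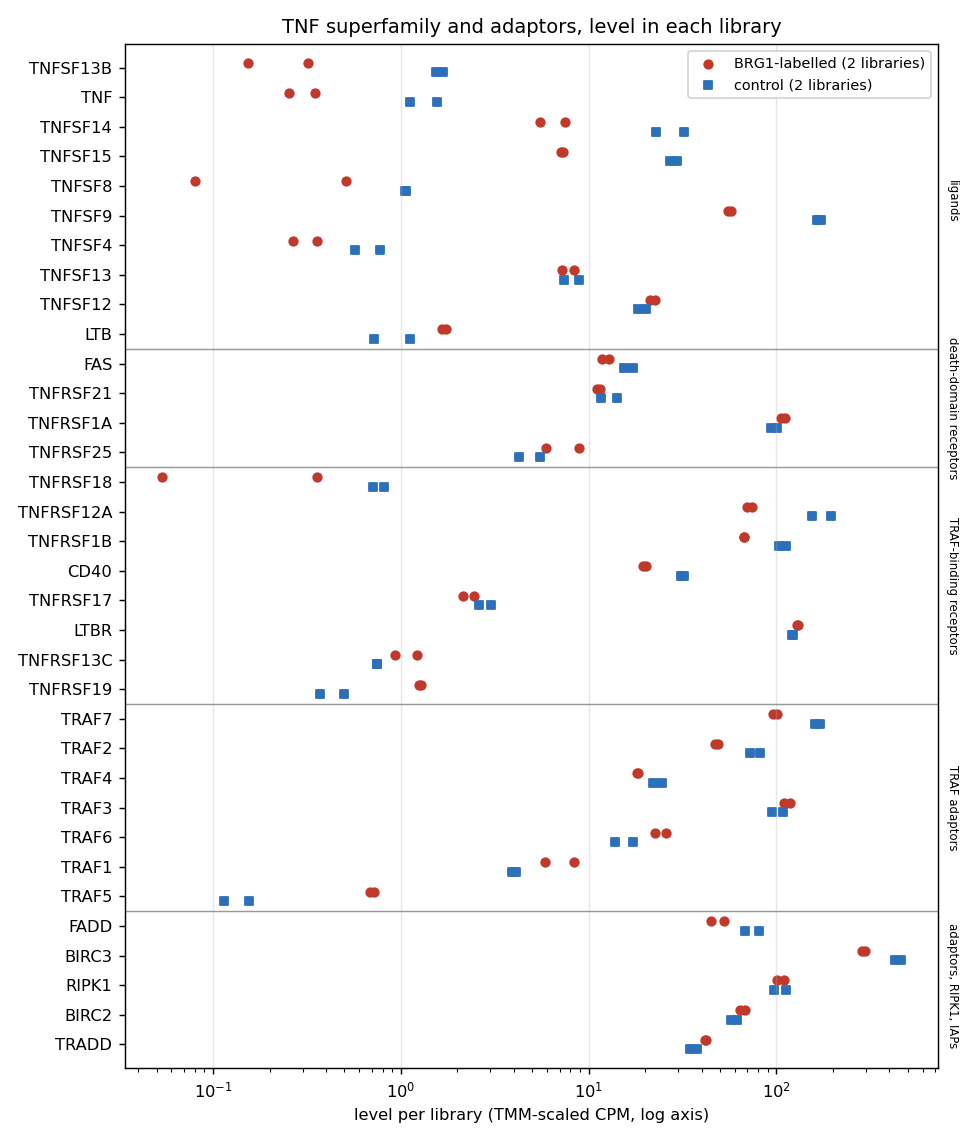
Level of each tested member in each of the 4 libraries, in TMM-scaled CPM on a log axis, with the libraries labelled BRG1 as red circles and controls as blue squares. TNFSF9 lies at 57.0 and 55.2 CPM in the libraries labelled BRG1, left of both controls at 165 and 172 CPM, while RIPK1 and TNFSF13 overlap between the groups.

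Among the ligands, 5 of 10 tested members fell and 0 rose, or 50% called, against 44.2% of all genes tested. Falls made up 23.4% of all genes. The median log2 fold change of the ligands was -1.70, against 0.02 over all genes. With library size alone 5 fell and 1 rose, and after the span correction 5 fell and 2 rose. TNFSF9, or 4-1BB ligand, which costimulates T cells, stood at 57.0 and 55.2 CPM in the libraries labelled BRG1, against 165 and 172 CPM in controls. Its fall was large against the spread within each group (log2 fold change -1.58 ± 0.10; adjusted p = 1.51e-08).

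TNFSF15, also called TL1A, a ligand made by endothelial cells and in inflamed tissue, had 7.11 and 7.29 CPM in the libraries labelled BRG1, against 27.2 and 29.6 CPM in controls. It fell 3.94-fold (log2 fold change -1.98 ± 0.15; adjusted p = 6.70e-08). TNFSF14, or LIGHT, which binds the lymphotoxin beta receptor, had 7.52 and 5.53 CPM in the libraries labelled BRG1, against 22.7 and 32.4 CPM in controls. It fell 4.21-fold (log2 fold change -2.08 ± 0.19; adjusted p = 7.75e-07), and its libraries differed more within each group than those of TNFSF9.

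TNF itself, the founding cytokine of the family, had few reads. There were 10 and 13 reads in the libraries labelled BRG1, against 39 and 50 reads in controls. The fall passed the test with a wide interval (log2 fold change -2.14, 95% interval -3.51 to -0.77; adjusted p = 0.0133) and did not pass without library 1 labelled BRG1 (adjusted p = 0.0837; 0.00243 to 0.0837 over the alternatives). TNFSF13B, or BAFF, a survival factor of B cells, had 6 and 12 reads in the libraries labelled BRG1, against 54 reads in each control (log2 fold change -2.76 ± 0.64; adjusted p = 0.00253).

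The remaining tested ligands did not pass. TNFSF12, or TWEAK, stood at 21.2 and 22.6 CPM in the libraries labelled BRG1 and 20.2 and 18.3 CPM in controls, with a 95% interval of the log2 fold change from -0.10 to 0.48 (adjusted p = 0.287). It passed as higher with library size alone (adjusted p = 0.0210) and after the span correction (0.0177 to 0.645 over the alternatives). TNFSF13, or APRIL, which acts on B lineage cells, stood at 7.22 and 8.33 CPM in the libraries labelled BRG1 and 8.85 and 7.42 CPM in controls, and the groups overlapped. LTB, which forms the membrane lymphotoxin complex with LTA, had 65 reads in each library labelled BRG1, against 39 and 23 reads in controls (log2 fold change 0.88 ± 0.47; adjusted p = 0.143), and passed as higher after the span correction (adjusted p = 0.0296). TNFSF8, or CD30 ligand, had 20 and 3 reads in the libraries labelled BRG1, against 37 and 34 reads in controls, and its adjusted p of 0.0686 ranged from 0.00963 to 0.394 over the alternatives. TNFSF4, or OX40 ligand, had 14 and 10 reads in the libraries labelled BRG1, against 20 and 25 reads in controls (adjusted p = 0.230).

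**Figure D2:**
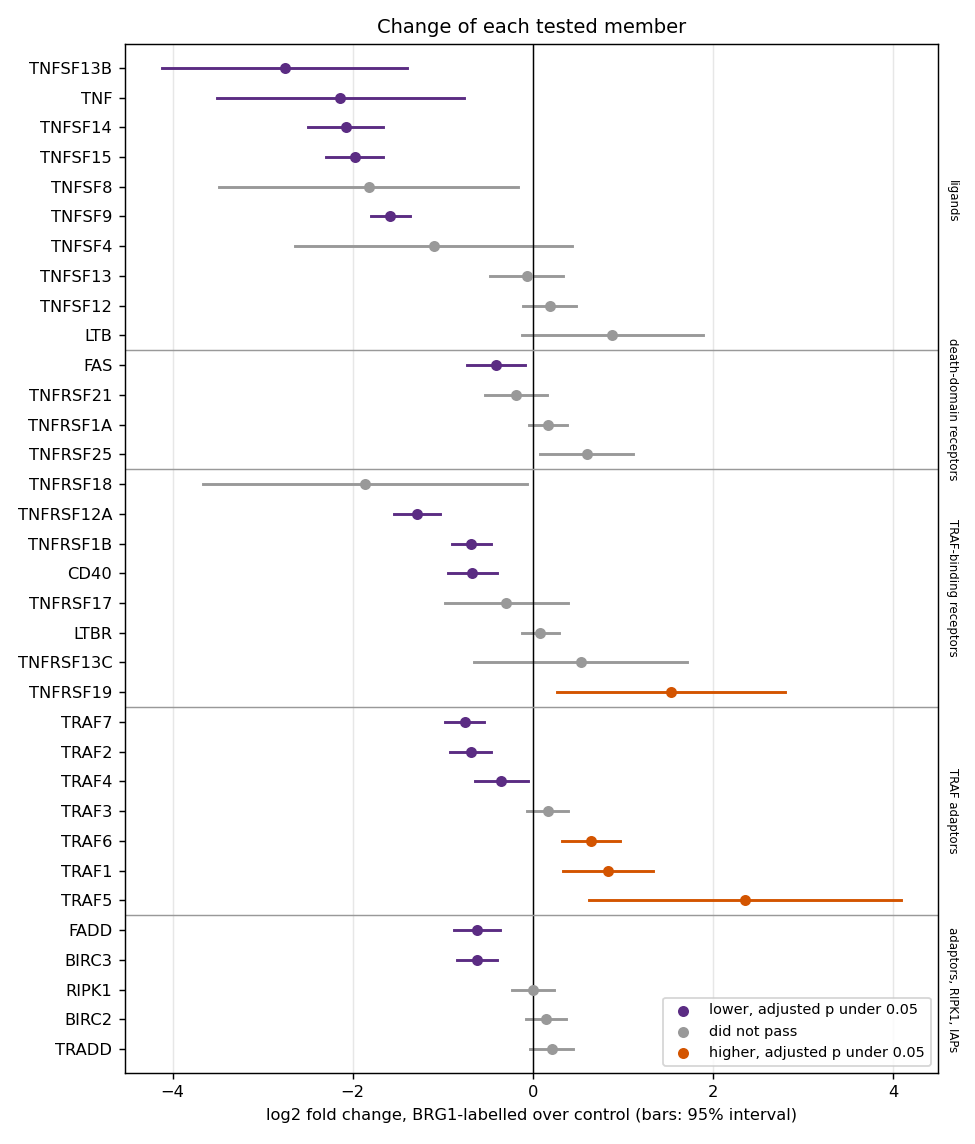
Log2 fold change of each tested member, libraries labelled BRG1 over controls, with its 95% interval, ordered by role. Filled colours mark the 14 members that fell and the 4 that rose at an adjusted p of 0.05, and the intervals of members with few reads, such as TNFSF4 and TRAF5, are wide.

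The neighbourhood of some ligand genes could be read from RefSeq positions on the pig build Sscrofa11.1. TNFSF14, CD70 and TNFSF9 follow each other on chromosome 2 between 72478178 and 72582834, with gaps of 45.1 and 46.9 kb. CD70, the ligand of CD27, belongs to the superfamily under another symbol and fell as its neighbours did, to 10.6 and 10.9 CPM in the libraries labelled BRG1, against 22.7 and 21.7 CPM in controls (log2 fold change -1.05 ± 0.14; adjusted p = 3.01e-05). TNFSF15 and TNFSF8 lie 86.7 kb apart on chromosome 1 (255328731 to 255459020), and of this pair the first fell and the second did not pass. LTA, TNF and LTB lie between 23696387 and 23707036 on chromosome 7. Of these, TNF fell, LTB did not pass, and LTA had 8 and 4 reads in the libraries labelled BRG1 and 0 reads in both controls. TNFSF12 and TNFSF13 are 317 bases apart on chromosome 12 (52843026 to 52857033), and neither passed. No source used here says whether reads were counted by strand, so reads of such close genes may not be fully separated.

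Among the 4 tested receptors with a death domain, 1 fell and 0 rose, while 0 fell and 2 rose with library size alone and with upper quartile factors, and 1 fell and 2 rose without control 2. With TMM factors the share called was 25%, against 44.2% of all genes tested. The fall was that of FAS. FAS, which starts apoptosis when bound by its ligand, had 12.9 and 11.8 CPM in the libraries labelled BRG1, against 17.3 and 15.5 CPM in controls (log2 fold change -0.41 ± 0.15; adjusted p = 0.0385). This call did not hold with library size alone (adjusted p = 0.335), with upper quartile factors, in DESeq2, or without either library labelled BRG1 or control 1 (0.00646 to 0.335 over the alternatives). FASLG, its ligand, had 0 reads in both libraries labelled BRG1, against 3 and 0 reads in controls.

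TNFRSF1A, or TNFR1, the main receptor of soluble TNF, stood at 112 and 106 CPM in the libraries labelled BRG1 and 93.8 and 100.1 CPM in controls. Its change did not pass, with a 95% interval from 0.97-fold to 1.30-fold (adjusted p = 0.185), but it passed as higher with library size alone (adjusted p = 0.00530), with upper quartile factors, after the span correction and without control 2 (0.00498 to 0.606 over the alternatives). TNFRSF25, or DR3, the receptor of TNFSF15, had 232 and 334 reads in the libraries labelled BRG1 and 150 and 177 reads in controls. Its adjusted p of 0.0558 lay next to the threshold and ranged from 0.00521 to 0.535 over the alternatives. TNFRSF21, or DR6, stood at 11.14 and 11.5 CPM in the libraries labelled BRG1 and 11.6 and 14.1 CPM in controls (adjusted p = 0.383). EDAR, the ectodysplasin receptor of skin appendages, had 0 reads in every library.

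Of the 8 tested receptors that bind TRAF proteins directly, 3 fell and 1 rose. That is 50% called, near the 44.2% of all genes tested. TNFRSF12A, or FN14, the receptor of TWEAK and a gene induced by growth factors and injury, had 69.7 and 74.2 CPM in the libraries labelled BRG1, against 196 and 154 CPM in controls. It fell 2.43-fold (log2 fold change -1.28 ± 0.12; adjusted p = 7.30e-07). TNFRSF1B, or TNFR2, which has no death domain and responds best to membrane TNF, had 67.0 and 67.3 CPM in the libraries labelled BRG1, against 104 and 112 CPM in controls. It fell 1.61-fold (log2 fold change -0.68 ± 0.10; adjusted p = 6.75e-05). CD40, the receptor of T cell help, had 20.2 and 19.5 CPM in the libraries labelled BRG1, against 31.2 and 32.2 CPM in controls, a fall of 1.59-fold (log2 fold change -0.67 ± 0.13; adjusted p = 5.67e-04).

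LTBR, the lymphotoxin beta receptor, stood at 129.0 and 129.5 CPM in the libraries labelled BRG1 and 120.5 and 123 CPM in controls. Its 95% interval ran from 0.92-fold to 1.23-fold (adjusted p = 0.507), although it passed as higher with library size alone (adjusted p = 0.0178) and after the span correction (0.00579 to 0.748 over the alternatives). TNFRSF19, or TROY, a receptor of embryonic skin and nervous system, had 50 and 47 reads in the libraries labelled BRG1, against 13 and 16 reads in controls. Its rise (log2 fold change 1.54 ± 0.59; adjusted p = 0.0459) did not pass in 7 of the 14 alternatives in which it was tested, among them DESeq2 and the removal of either library labelled BRG1 or of control 1. TNFRSF18, or GITR, had 14 and 2 reads in the libraries labelled BRG1 and 25 and 26 reads in controls (adjusted p = 0.0845). It passed as lower with limma-voom (adjusted p = 0.0438), without library 1 labelled BRG1 and without control 1 (0.0248 to 0.439 over the alternatives). TNFRSF17 and TNFRSF13C, receptors of B lineage cells, had adjusted p values of 0.490 and 0.463, with 80 to 96 and 35 to 48 reads in the libraries labelled BRG1 and 91 to 97 and 24 to 26 reads in controls.

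Ligands were set beside the receptors that they bind. Of 16 pairs listed from known binding, 9 had both sides tested. Both sides fell in 1 of them, TNF and TNFRSF1B. The ligand fell and the receptor did not pass in 5, namely TNF with TNFRSF1A, TNFSF14 with LTBR, TNFSF15 with TNFRSF25, and TNFSF13B with TNFRSF13C and with TNFRSF17. The receptor fell and the ligand did not pass in 2, TNFSF12 with TNFRSF12A and CD40LG with CD40, although TNFSF12 passed as higher in the 2 alternatives named above, and neither passed for TNFSF13 with TNFRSF17. TNFSF9 fell while its receptor TNFRSF9 had 0 and 8 reads in the libraries labelled BRG1 and 1 and 0 reads in controls.

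**Figure D3:**
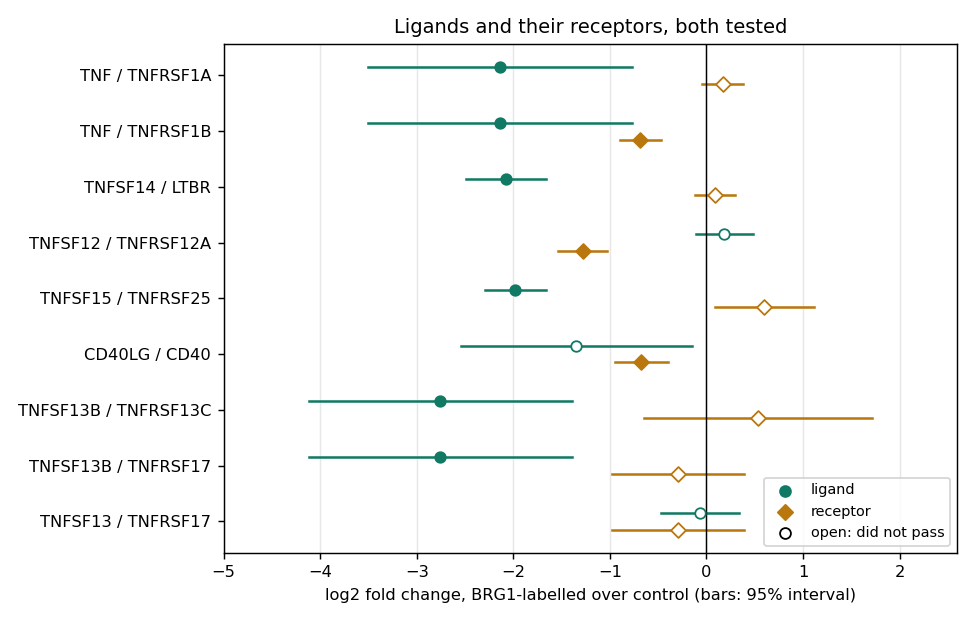
Log2 fold change of the ligand (green circle) and the receptor (ochre diamond) in the 9 pairs with both sides tested, libraries labelled BRG1 over controls, with 95% intervals and open symbols where the test was not passed. The interval of TNFSF14 runs from -2.49 to -1.66 and that of LTBR from -0.12 to 0.29, while in the TWEAK pair it is the receptor, TNFRSF12A, that lies below 0.

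Counts of one gene set against another within a library do not depend on how libraries are scaled, but are not corrected for gene length, so only their difference between groups can be read. The pairs were chosen after the values were seen, and 2 against 2 libraries cannot bring an exact permutation test below p = 0.333. Per 100 reads of TNFRSF1A there were 59.98 and 63.4 reads of TNFRSF1B in the libraries labelled BRG1, against 111 and 112 in controls. Per 100 reads of TNFSF12 there were 330 and 329 reads of its receptor TNFRSF12A in the libraries labelled BRG1, against 972 and 845 in controls. In these ratios the libraries of each group lay on separate sides, as did the CPM of 73.1% of all genes tested. Per 100 reads of LTBR there were 5.83 and 4.27 reads of TNFSF14 in the libraries labelled BRG1, against 18.9 and 26.3 in controls.

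The TRAF proteins changed in both directions: 3 of 7 fell and 3 rose, TRAF5 among the rises. That is 85.7% called, against 44.2% of all genes tested, but it counts TRAF5, which had to differ. With library size alone 2 fell and 4 rose. TRAF2, the adaptor that brings BIRC2 and BIRC3 to TNF receptors, had 48.8 and 47.4 CPM in the libraries labelled BRG1, against 82.2 and 72.6 CPM in controls. It fell 1.61-fold (log2 fold change -0.69 ± 0.11; adjusted p = 1.10e-04). TRAF7, which carries WD40 repeats in place of the TRAF domain, had 96.0 and 100.6 CPM in the libraries labelled BRG1, against 161 and 171 CPM in controls (log2 fold change -0.76 ± 0.10; adjusted p = 2.42e-05). TRAF4, a TRAF found largely in epithelium and in development, had 18.2 CPM in each library labelled BRG1, against 24.4 and 21.9 CPM in controls. Its adjusted p of 0.0496 lay at the threshold and reached 0.478 with library size alone, and the fall did not pass in 9 of the 15 alternatives (0.00479 to 0.732 over the alternatives).

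TRAF6, which serves Toll-like and interleukin-1 receptors as well as CD40, rose to 22.5 and 25.96 CPM in the libraries labelled BRG1, against 13.8 and 17.2 CPM in controls (log2 fold change 0.65 ± 0.15; adjusted p = 0.00289). TRAF1, a TRAF without a RING domain that pairs with TRAF2, had 5.89 and 8.36 CPM in the libraries labelled BRG1, against 3.88 and 4.08 CPM in controls. Its rise (log2 fold change 0.84 ± 0.24; adjusted p = 0.00922) did not pass without library 2 labelled BRG1 (adjusted p = 0.185; 0.00183 to 0.185 over the alternatives). Per 100 reads of TRAF2 there were 12.1 and 17.7 reads of TRAF1 in the libraries labelled BRG1, against 4.73 and 5.62 in controls. TRAF5, which acts in lymphocytes, had 27 reads in each library labelled BRG1, against 4 and 5 reads in controls. Its fitted log2 fold change of 2.36 is a description, since it reached the read minimum only in the libraries labelled BRG1, and its call was lost with no filter on low reads (adjusted p = 0.0584). TRAF3, which holds back the alternative NF-kappaB pathway, stood at 109 and 118 CPM in the libraries labelled BRG1 and 94.9 and 108 CPM in controls (adjusted p = 0.217), and passed as higher with library size alone and without control 2 (4.70e-04 to 0.816 over the alternatives). Per 100 reads of TRAF3 there were 44.6 and 40.0 reads of TRAF2 in the libraries labelled BRG1, against 86.6 and 67.2 in controls.

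**Figure D4:**
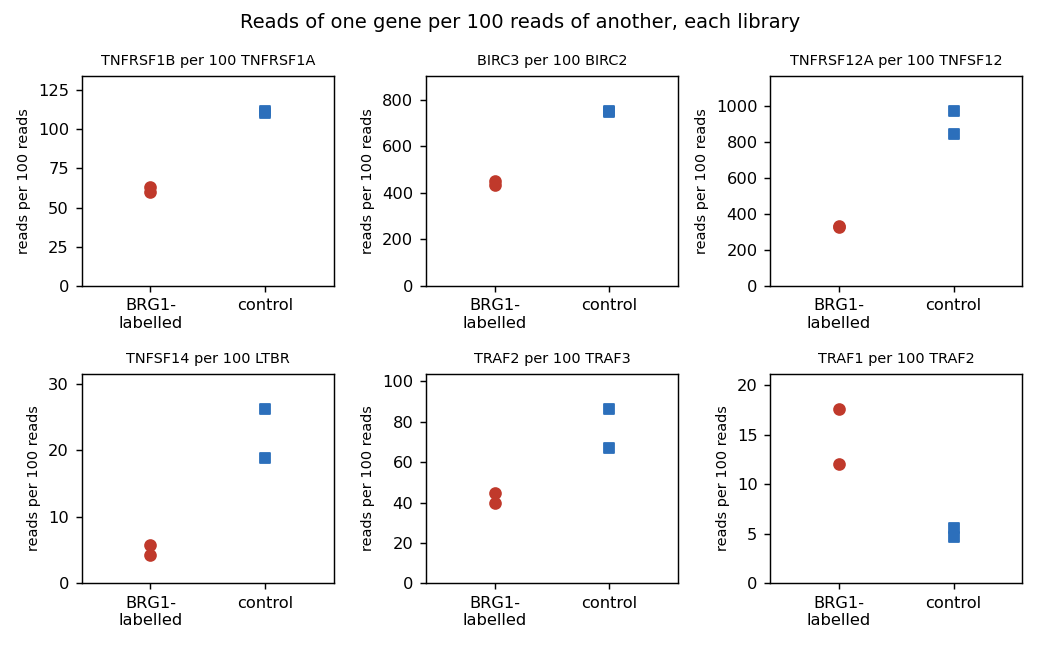
Reads of one gene per 100 reads of another in each library, for 6 pairs, with the libraries labelled BRG1 (red circles) left of controls (blue squares) and axes from 0. In BIRC3 per 100 reads of BIRC2 the libraries labelled BRG1 lie at 435 and 449 and the controls at 752 and 749. The groups overlap in none of the 6 panels, but the pairs were chosen after the values were seen. Among all genes tested, 73.1% do not overlap in CPM.

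Of the adaptors and enzymes next to the receptors, 2 of 5 fell and 0 rose. That is 40% called, near the 44.2% of all genes tested. With library size alone 2 rises were added. BIRC3, or cIAP2, a ubiquitin ligase that protects from TNF-induced death and is itself an NF-kappaB target, had 296 and 286 CPM in the libraries labelled BRG1, against 462 and 429.6 CPM in controls. It fell 1.53-fold (log2 fold change -0.62 ± 0.10; adjusted p = 2.10e-04). Its close relative BIRC2, or cIAP1, stood at 68.0 and 63.8 CPM in the libraries labelled BRG1 and 61.4 and 57.4 CPM in controls, with a 95% interval from 0.95-fold to 1.29-fold (adjusted p = 0.263). BIRC2 passed as higher with library size alone (adjusted p = 0.00837) and without control 1 (0.00837 to 0.684 over the alternatives). FADD, the adaptor that links death domains to caspase-8, had 44.6 and 52.4 CPM in the libraries labelled BRG1, against 80.6 and 68.4 CPM in controls. Its fall (log2 fold change -0.62 ± 0.12; adjusted p = 6.36e-04) did not pass after the span correction (adjusted p = 0.0711; 3.00e-17 to 0.0711 over the alternatives). TRADD, the adaptor of TNFR1, stood at 42.1 and 41.7 CPM in the libraries labelled BRG1 and 37.7 and 34.8 CPM in controls (adjusted p = 0.151). It passed as higher with library size alone (adjusted p = 0.00551), with upper quartile factors, after the span correction and without control 1 (0.00165 to 0.453 over the alternatives). RIPK1 stood at 100.4 and 110.4 CPM in the libraries labelled BRG1 and 97.0 and 113 CPM in controls. The groups overlapped, and the 95% interval ran from 0.86-fold to 1.18-fold.

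The 9 members below the minimum were mostly genes known from leukocytes, bone or skin appendages. EDAR and TNFRSF11A, the receptor RANK, had 0 reads in every library. TNFRSF11B, the secreted decoy receptor osteoprotegerin, had 0 reads in both libraries labelled BRG1, against 2 and 11 reads in controls. Its ligand TNFSF11, or RANKL, had 1 and 2 reads in the libraries labelled BRG1, against 9 and 11 reads in controls. TNFSF18 had 9 and 12 reads in the libraries labelled BRG1, against 4 in each control. TNFRSF4 had 6 and 0 reads in the libraries labelled BRG1 and 0 reads in both controls. A gene without a symbol in the count files, which the gene name table calls TNFRSF13B, had 20 and 24 reads in the libraries labelled BRG1 and 48 and 34 reads in controls, and is not among the members.

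The summed level of leukocyte markers was 9.38 and 7.85 CPM in the libraries labelled BRG1 and 19.9 and 13.9 CPM in controls. Most of it came from LCP1, an actin-bundling protein, at 8.26 and 5.69 CPM in the libraries labelled BRG1, against 17.3 and 11.2 CPM in controls. LCP1 and TYROBP fell, 2 of 3 tested, or 66.7%, against 23.4% of all genes. The third, CD79A of the B cell receptor, had 19 and 51 reads in the libraries labelled BRG1 and 5 and 19 reads in controls, and did not pass (log2 fold change 1.33; adjusted p = 0.186). PTPRC, carried by nearly all leukocytes, was at 0. The part of other cells in the falls of the ligands was not tested, and in bulk RNA fewer cells of a type and less RNA per cell cannot be told apart.

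Members that rose spanned more genome at the median than those that fell or did not pass, but they include TRAF5 (49746 bases), which had to differ. TRAF6, TRAF1 and TNFRSF19 span 25515, 25788 and 171432 bases. No span by call over all genes is given here. The 4 members that rose span 37.8 kb of genome at the median (25.5 to 171 kb). The 13 that fell and have a position on a named chromosome span 12.1 kb (2.01 to 35.7 kb), and 14 that did not pass span 7.06 kb (2.20 to 322 kb), so the ranges overlap. TRAF2, which fell, and TRAF3, which did not pass and spans 119184 bases, lie on no named chromosome and are left out. The part of gene span in the calls was not tested beyond the counts after its correction, given above.

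**Figure D5:**
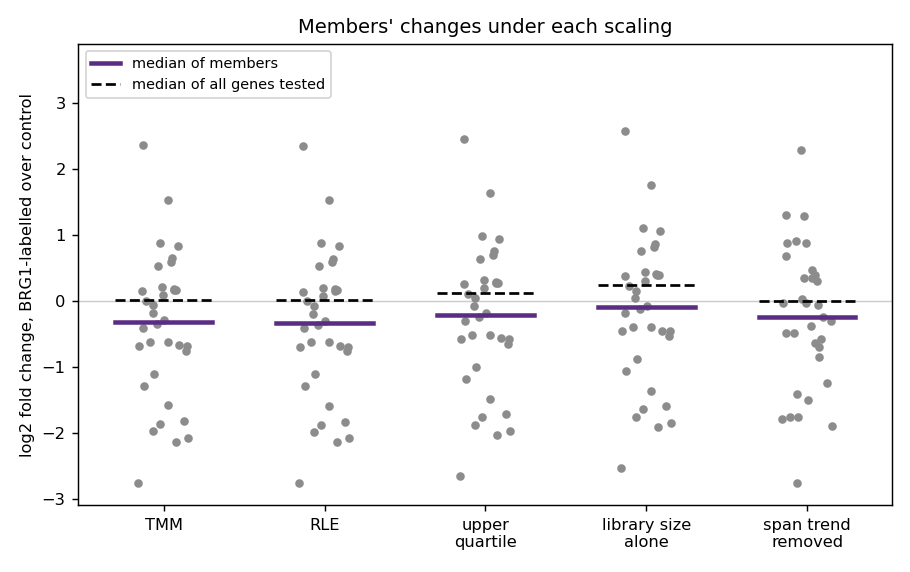
Log2 fold change of each tested member (grey points) under 4 ways of scaling the libraries and after the correction for gene span, with the median of the members (solid line) and of all genes tested (dashed line). The median of the members was -0.32 with TMM and -0.09 with library size alone, where the median of all genes was 0.25.

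Other superfamily genes and the steps around the receptors were followed in lists. Against the 44.2% of all genes called, the share called was 42.1% in the ubiquitin and IKK list and 50% each in the death complex and the JNK and p38 arm, near the rate of all genes. It was 60% each among superfamily genes with other symbols and shedding genes, 5 tested in each. The first of these shares counts EDA, which reached the read minimum only through the libraries labelled BRG1 and so had to differ. That share is therefore no evidence of a rate above that of all genes. Of the 5 tested superfamily genes with other symbols 2 fell and 1, EDA, rose. NGFR, the neurotrophin receptor, had 72 and 50 reads in the libraries labelled BRG1, against 229 and 209 reads in controls (log2 fold change -2.04 ± 0.27; adjusted p = 2.77e-05). EDA, the ectodysplasin ligand of hair and gland development, had 84 and 98 reads in the libraries labelled BRG1, against 2 and 1 reads in controls. The ratio of the summed reads, scaled by depth, was 53.1 with a 95% counting interval from 17.9 to 260 (exact binomial), and EDA reached the read minimum only through the libraries labelled BRG1, so that it had to differ and was not tested without either of them. CD40LG had 15 and 29 reads in the libraries labelled BRG1 and 52 and 47 reads in controls (adjusted p = 0.0632).

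Of 5 genes that release TNF ligands from the membrane or hold that release back, 2 fell and 1 rose, or 2 fell and 2 rose with library size alone and without control 2. ADAM17, the protease that sheds TNF, had 54.3 and 51.7 CPM in the libraries labelled BRG1, against 70.9 and 87.9 CPM in controls (log2 fold change -0.58 ± 0.12; adjusted p = 9.02e-04). RHBDF2, which carries ADAM17 to the surface, fell by 0.91 ± 0.16 on the log2 scale. TIMP3, an inhibitor of ADAM17, rose to 1817 and 1865 CPM in the libraries labelled BRG1, against 719 and 789.6 CPM in controls (log2 fold change 1.29 ± 0.11; adjusted p = 3.60e-07).

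In the ubiquitin and IKK machinery that carries the signal from TRAF proteins to NF-kappaB, 8 of 19 genes fell and 0 rose, with library size alone 5 fell and 3 rose, and without library 1 labelled BRG1 5 fell. TNIP1, which dampens NF-kappaB by binding ubiquitin chains, had 143 and 141 CPM in the libraries labelled BRG1, against 419 and 379 CPM in controls (log2 fold change -1.49 ± 0.11; adjusted p = 3.95e-08). TNFAIP3, or A20, the ubiquitin editing brake on the pathway, had 111 and 109 CPM in the libraries labelled BRG1, against 228 and 252 CPM in controls, and IKBKE, an IKK-related kinase, had 36.3 and 37.6 CPM in the libraries labelled BRG1, against 84.9 and 104 CPM in controls. RBCK1, a subunit of the linear ubiquitin ligase, fell by 0.69 ± 0.10 on the log2 scale. The median of the list was -0.23, against 0.02 over all genes.

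The death complex below FADD and RIPK1 held 4 falls and 1 rise among 10 genes, 50% called against 44.2% of all genes. There were 1 fall and 2 rises with library size alone, 3 falls and 0 rises without library 1 labelled BRG1, and 2 falls and 1 rise without library 2. CFLAR, or cFLIP, which blocks caspase-8, had 56.0 and 56.2 CPM in the libraries labelled BRG1, against 126 and 103 CPM in controls (log2 fold change -1.03 ± 0.11; adjusted p = 4.06e-06). BID, which passes the death signal to mitochondria, fell by 0.52 ± 0.16 on the log2 scale. XIAP, an inhibitor of caspases, rose to 48.3 and 46.9 CPM in the libraries labelled BRG1, against 35.4 and 34.6 CPM in controls (log2 fold change 0.44 ± 0.11; adjusted p = 0.00438). RIPK3 and MLKL, which carry out necroptosis, did not pass (adjusted p = 0.815 and 0.992).

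Of 8 kinases of the JNK and p38 arm 4 fell and 0 rose, again 50% called against 44.2%, but with library size alone 2 fell and 4 rose, and with upper quartile factors 3 fell and 4 rose. With either library labelled BRG1 left out 1 fell, and with either control left out 4 fell and 2 rose. Among the falls were MAP2K3, a p38 activator (log2 fold change -0.53 ± 0.10; adjusted p = 8.47e-04), and MAP3K5, the stress kinase ASK1 that TRAF2 binds (log2 fold change -0.58 ± 0.12; adjusted p = 0.00137).

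Genes known to answer to TNF through NF-kappaB fell in 16 of 17 tested, and 1 rose, with a median log2 fold change of -1.41 against 0.02 over all genes. That is 100% called, against 44.2% of all genes tested. The falls made up 94.1%, against 23.4% of all genes. At least 14 fell and 1 rose with library size alone, with upper quartile factors, after the span correction and without any single library. CXCL8, the neutrophil chemokine interleukin-8, had 3218 and 3159 CPM in the libraries labelled BRG1, against 19334 and 16347 CPM in controls (log2 fold change -2.48 ± 0.13; adjusted p = 3.28e-09). CXCL2, a chemokine of the same class, fell by 2.48 ± 0.13 on the log2 scale. IL6, an inflammatory cytokine, fell by 2.22 ± 0.12 on that scale. TNFAIP2, named for its induction by TNF, had 85.4 and 94.3 CPM in the libraries labelled BRG1, against 335 and 359 CPM in controls. TNFAIP8, an apoptosis regulator, was the gene that rose, to 16.6 and 17.4 CPM in the libraries labelled BRG1, against 9.91 and 8.10 CPM in controls (log2 fold change 0.91 ± 0.16; adjusted p = 2.84e-04). Inflammatory genes of these libraries were known to be lower before the list was written, so this list is not independent evidence of its direction.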

How the data were processed

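Groups and replicate numbers of the 4 RNA libraries of porcine fetal fibroblasts come from the sample titles. Each deposited file holds counts of reads per Ensembl gene, not normalized. The submitters' processing notes name STAR, FastQC, SAMtools, Cufflinks, edgeR and DESeq2 and the build Sscrofa11.1; the read counter, strand setting and annotation release are not given in the sources used here. Rows without a gene at the end of each file entered neither library sizes nor tests: reads outside genes, on more than 1 gene and aligned more than once made up 6.11% to 10.5%, 1.90% to 2.33% and 1.42% to 1.80% of all reads listed. The exact binomial interval of EDA and the floor of 3 reads cover counting error only, while the intervals of fitted fold changes include the spread between libraries.

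Counts were fitted in R 4.3.3 with edgeR 4.0.16 on all 14711 genes with 10 or more reads in at least 2 libraries, scaled by TMM (factors 1.08 and 1.08 for the libraries labelled BRG1, 0.919 and 0.931 for controls). Groups were compared by edgeR's quasi-likelihood F test, with Benjamini-Hochberg adjustment over all genes and a call at 0.05 (common biological coefficient of variation 0.113). Fold changes use a prior count of 0.125, the SE is the fold change without a prior count, on the log2 scale, over the square root of F, and 95% intervals are not adjusted. On simulated counts of 14711 genes, the test called 81 of 100 genes made 2-fold different, 99 of 100 made 4-fold different and 10 of 14511 left alone. The simulation gave every gene the same coefficient of variation, 0.113, in both groups, and made as many genes higher as lower. In the data 44.2% of genes were called and controls varied more than the libraries labelled BRG1, so these rates need not hold there.

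Replicates differed by more than counting noise (chi-square per degree of freedom 4.80 for the libraries labelled BRG1, 30.1 for controls). The members, the gene lists and the tests were chosen with earlier results of these data known. Values per library are given for members past the threshold with a 2-fold change and for the members by role, and up to 4 genes per list by adjusted p; the other named genes were chosen after their values were seen. RefSeq positions on the same build were matched by symbol for 42 of 43 members. Alternatives were other scalings and filters, DESeq2 1.42.0, limma-voom (limma 3.58.1), the replicate block, a stricter threshold, each library left out, and a correction for gene span over the 77.2% of tested genes with one (a loess curve per library), which was chosen after seeing the data. Promoter motifs were not analysed here. The value of 1 gene in the death complex list is not reported.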

Additional observations from a re-analysis of the deposited data

How the results depend on the processing

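The 14 falls among the members numbered 11 to 16 in the 15 alternatives run. The 4 rises became 11 with library size alone, 7 with upper quartile factors, 2 with at least 50 reads in 2 libraries, 2 at an adjusted p of 0.01 and 9 after the span correction, and 1 to 7 when each library was left out. The median log2 fold change of -0.32 was -0.095 with library size alone, -0.21 with upper quartile factors and -0.24 after the span correction. In the lists around the receptors, 4 rises became 13 with library size alone and 9 with upper quartile factors, and 2 to 8 when each library was left out. The log2 fold change of SMARCA4 turned from -0.04 to 0.18 with library size alone and 0.060 with upper quartile factors. It ran from -0.15 without control 1 to 0.061 without control 2.

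Signs turned only in members that had not passed. RIPK1 (0.01) was at -0.0023 with RLE factors and in DESeq2, -0.025 with no filter, -0.024 after the span correction, and -0.11 to 0.12 with a library left out. TNFSF13 (-0.07) was at 0.16 with library size alone, 0.040 with upper quartile factors, 0.30 after the span correction and -0.19 to 0.063 with a library left out. TNFRSF21 was at 0.043 with library size alone, and TRAF3 and TNFRSF17 were at -0.032 and 0.037 after the span correction. The cause was not tested. The replicate numbers did not pair the libraries (correlation of same-numbered deviations -0.04), and with the replicate block 4 members rose and 15 fell, with 31 of 34 calls on the same side: TNFRSF19 no longer passed (adjusted p = 0.0666; 0.0237 to 0.159 over the alternatives), while TNFSF8 and TNFRSF25 did. A library left out leaves 1 in its group, which is assumed to vary like the other group. Depth limits TNF, TNFSF13B, TNFSF4, TNFSF8, TNFRSF13C, TNFRSF18, TNFRSF19 and TRAF5, where 1 group or both had under 30 reads per library.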
